A study of Mus musculus with 16 samples.

Results

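Interferon response genes were followed through the hippocampus of 16 female mice. The set held 37 genes of the 55335 in the raw count table, chosen by name as genes that interferons are known to switch on, and 34 of the 37 had enough reads to be tested among 16475 tested genes. Zbp1, Oas1a and Oas2 had too few, with 201, 139 and 134 reads over all mice, and are described with no test. All mice were 10 months old, with 4 in each group, and were infused for 28 days into the lateral ventricle from an implanted osmotic pump. WT-D mice (C57BL/6J x 129S1) and 3xTg-D mice received a vehicle with 0.8% DMSO, and WT-S and 3xTg-S mice received 80 µM CAY10566, an inhibitor of stearoyl-CoA desaturase (SCD), in the same vehicle. The treatment labels name this Cayman compound, while the shared protocol text of the labels names another supplier's inhibitor. 3xTg mice (B6;129-Psen1tm1MpmTg(APPSwe,tauP301L)1Lfa/Mmjax) model Alzheimer's disease. They carry human APP (Swe) and human tau (P301L) transgenes, both under the neuron-specific mouse Thy1.2 element, and a mutant presenilin knock-in (M146V). WT mice carry none of these alleles, and the groups share the pump surgery. The library from each mouse was 1 hippocampal RNA sample, with 15413385 to 23590149 reads on genes. Levels are given as CPM, the reads of a gene scaled to a common library total. Thy1, whose regulatory element drives the transgenes, was at 517 to 626 CPM in WT mice and 1566 to 2141 CPM in 3xTg mice, so no library went against its genotype label. The 4 neuron markers, Rbfox3, Snap25, Slc17a7 and Prox1, summed to 3205 to 3970 CPM.

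Interferons are signalling proteins that cells release on sensing viral or misplaced nucleic acid. Type I interferons act through the receptor pair Ifnar1 and Ifnar2 and lead, through a complex that holds Stat2 and Irf9, to binding at the interferon-stimulated response element (ISRE) of target promoters. Interferon gamma acts through Ifngr1 and Ifngr2 and leads to binding at the gamma-activated site (GAS). Both classes share many targets, but guanylate-binding proteins, immunity-related GTPases and immunoproteasome subunits are known as strong interferon gamma targets, while the Ifit, Oas, Isg15 and Usp18 genes are known as type I targets. In the brain, microglia, astrocytes, endothelium and neurons can all respond.

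RefSeq promoter windows (build GRCm38.p6, 250 bases before to 50 after the gene start) were found for 28 of the 37 genes. Dhx58, Zbp1, Usp18, Oas2, Ifi27, Ifi27l2a, Rtp4, Parp9 and Parp14 had no entry. An ISRE-like match, GAAANNGAA on either strand, was present for 18 of the 28 genes (64.3%) and for 2638 of all 27025 genes with a window (9.76%). A GAS-like match, TTCNNNGAA, which reads the same on both strands, was present for 6 of the 28 (21.4%) and for 9.55% of all genes. All 5 GTPase genes held an ISRE-like match, and both subunits of the immunoproteasome lacked one in this window. The 250 bases before the start are shown for 5 genes whose levels the results turn on, with every match in capitals. They are Igtp and Gbp2, which were the most raised of the GTPases in WT-D 1, Ifit1 and Isg15, which were high in 3xTg-D 2 and 3xTg-S 1, and Stat2, which passed a group test.
Igtp, chr11:58199306-58199555, plus strand: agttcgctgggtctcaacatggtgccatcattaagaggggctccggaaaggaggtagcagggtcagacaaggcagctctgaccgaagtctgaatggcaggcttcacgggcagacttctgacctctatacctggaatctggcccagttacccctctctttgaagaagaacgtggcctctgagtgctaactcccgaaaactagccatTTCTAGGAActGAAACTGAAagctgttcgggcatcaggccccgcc
Gbp2, chr3:142620413-142620662, plus strand: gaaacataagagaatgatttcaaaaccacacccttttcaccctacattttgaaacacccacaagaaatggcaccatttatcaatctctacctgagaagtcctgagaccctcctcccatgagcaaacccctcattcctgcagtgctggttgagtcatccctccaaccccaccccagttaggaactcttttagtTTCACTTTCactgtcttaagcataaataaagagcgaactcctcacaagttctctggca
Ifit1, chr19:34640639-34640888, plus strand: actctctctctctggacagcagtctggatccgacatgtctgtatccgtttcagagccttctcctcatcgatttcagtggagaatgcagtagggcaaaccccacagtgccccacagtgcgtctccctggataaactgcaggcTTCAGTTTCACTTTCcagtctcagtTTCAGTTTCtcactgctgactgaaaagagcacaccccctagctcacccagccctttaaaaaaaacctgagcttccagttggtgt
Isg15, chr4:156200819-156201068, minus strand: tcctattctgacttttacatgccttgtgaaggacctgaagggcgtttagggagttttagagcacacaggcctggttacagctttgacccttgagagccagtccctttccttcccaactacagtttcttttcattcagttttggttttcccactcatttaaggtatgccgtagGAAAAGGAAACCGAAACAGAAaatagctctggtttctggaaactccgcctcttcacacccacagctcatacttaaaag
Stat2, chr10:128270248-128270497, plus strand: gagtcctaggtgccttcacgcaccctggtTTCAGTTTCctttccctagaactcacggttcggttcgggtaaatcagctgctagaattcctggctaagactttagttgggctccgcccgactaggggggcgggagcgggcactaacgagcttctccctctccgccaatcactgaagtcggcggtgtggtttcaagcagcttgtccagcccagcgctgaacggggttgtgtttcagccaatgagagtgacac
The ISRE-like match of Igtp began 34 bases before its start, and its GAS-like match began 45 bases before the start. Ifit1 and Isg15 had 3 ISRE-like matches each, which overlap or lie close together, between 109 and 66 bases before the start. Stat2 had a match only far upstream, at 221 bases. A match is a description of letters, not a measured binding site.

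The largest difference in this set lay between mice of the same group. In 3 mice nearly the whole set was high: WT-D 1, 3xTg-D 2 and 3xTg-S 1. Each of the 37 genes had its highest level of all 16 mice in 1 of these 3, with 17 genes in WT-D 1, 11 in 3xTg-D 2 and 9 in 3xTg-S 1. For 35 genes these mice were also the top 3 of the 16. The exceptions were Stat2 and Oas2. No WT-S mouse stood apart in this way. These 3 mice were recognised from the values themselves and belong to different groups, so they are described singly and never compared as a group.

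Each mouse was set against the median of the other 3 mice of its group. WT-D 1 was at least 2-fold above that median for 24 of the 34 tested genes, against 2.57% of all tested genes. 3xTg-D 2 was so for 25 genes, against 2.29% of all, and 3xTg-S 1 for 27 genes, against 2.15%. The other 13 mice had 0 to 4 such genes, with 4 in WT-S 3. At 4-fold, the 3 mice had 17, 7 and 12 genes, against 0.704%, 0.358% and 0.382% of all tested genes. The median ratio over the 34 genes was 3.96 in WT-D 1, 3.04 in 3xTg-D 2 and 2.77 in 3xTg-S 1, and over all tested genes it was 0.993, 1.00 and 0.998. The average log2 CPM of the set was 3.78, 3.60 and 3.45 in the 3 mice and between 1.51 and 2.20 in the other 13.

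**Figure D1:**
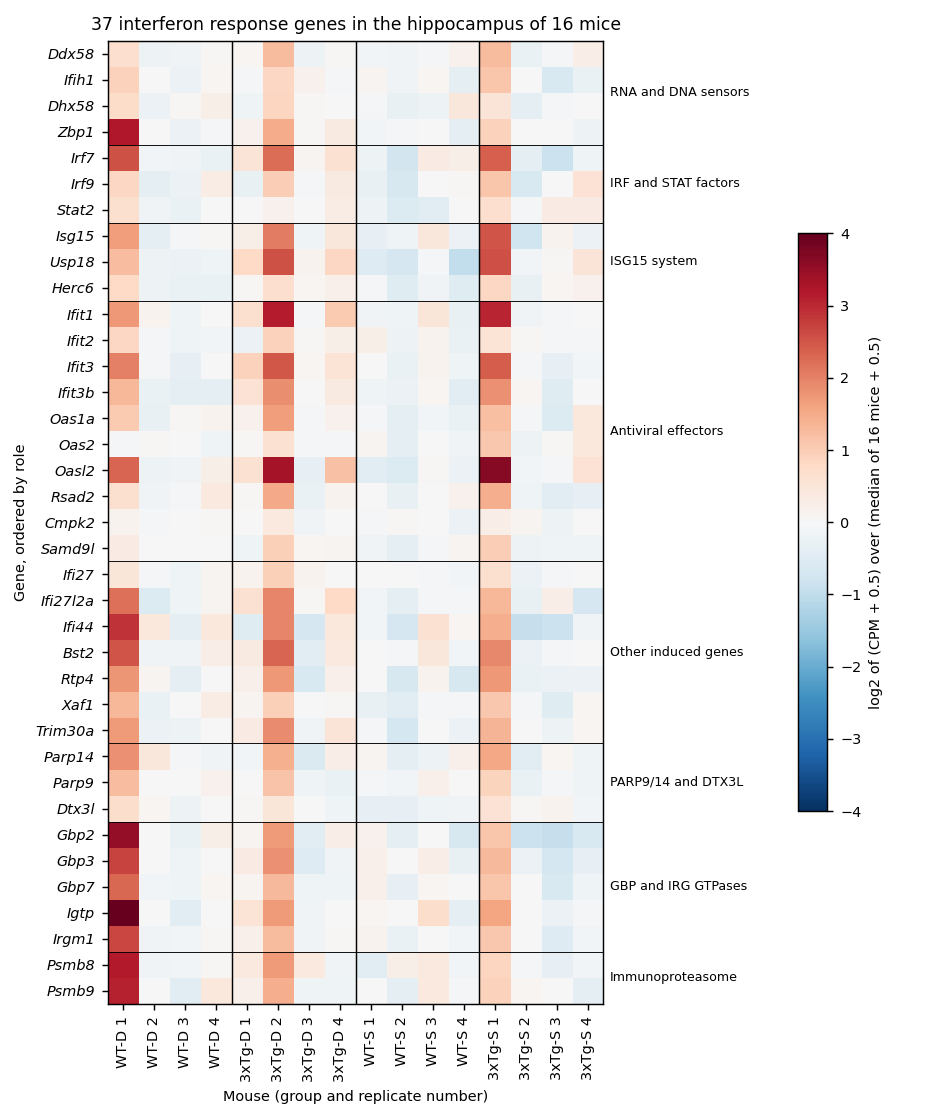
Level of each of the 37 genes (vertical axis, grouped by role) in each of the 16 mice (horizontal axis, grouped by treatment), as log2 of CPM plus 0.5 over the median of the 16 mice plus 0.5. The colour scale ends at 4. Red columns mark WT-D 1, 3xTg-D 2 and 3xTg-S 1, and no WT-S mouse has such a column.

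The 3 mice were not alike in the technical measures at hand. WT-D 1 and 3xTg-D 2 had the second-deepest and the deepest library, with 23309273 and 23590149 reads on genes, and 3xTg-S 1 had the shallowest, with 15413385. Their shares of reads outside annotated genes were 10.6%, 8.79% and 12.8%, inside the range of 7.82% to 15.1% over all mice. WT-D 1 and 3xTg-S 1 share the replicate number 1. The other mice with that number, 3xTg-D 1 and WT-S 1, had an average log2 CPM of 2.14 and 1.80. Nothing in the labels says what the number stands for. The part of depth, or of any handling shared between mice, in the result was not tested.

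The GTPases were among the most raised genes of WT-D 1. They are Gbp2, Gbp3, Gbp7, Igtp and Irgm1, of which the Gbp proteins coat and attack vacuoles that hold intracellular pathogens. All 5 had a higher ratio in WT-D 1 than in 3xTg-D 2 and 3xTg-S 1, with a median of 7.19-fold against 3.25-fold and 3.36-fold. Igtp, the IRG protein Irgm3, was at 68.3 CPM in WT-D 1 and at 2.26, 1.601 and 2.25 CPM in the other WT-D mice, a ratio of 30.4. It was at 8.56 CPM in 3xTg-D 2 and 2.02 to 3.57 CPM in the other 3xTg-D mice. In 3xTg-S 1 it was at 7.78 CPM, and the other 3xTg-S mice had 1.86 to 2.29 CPM. The WT-S mice had 1.68 to 4.08 CPM, and WT-D 1 lay above every other mouse. Irgm1, which directs such GTPases to membranes, was at 70.9 CPM in WT-D 1, 26.3 in 3xTg-D 2 and 22.95 in 3xTg-S 1, and 7.32 to 12.5 CPM in the remaining 13 mice. Gbp2 was at 49.5 CPM in WT-D 1, 13.6 in 3xTg-D 2 and 8.76 in 3xTg-S 1. The remaining WT-D mice had 3.10 to 4.60 CPM of Gbp2, the remaining 3xTg-D mice 2.71 to 4.69, WT-S mice 2.28 to 4.41 and the remaining 3xTg-S mice 1.80 to 2.32. Igtp exons overlap those of Irgm2 by 162 bases and 7.80% of its 75-base words also occur in another gene, so a part of its reads may be shared.

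The immunoproteasome subunits Psmb8 and Psmb9, which replace the standard catalytic subunits and alter the peptides offered to T cells, followed the same order. Psmb9 was at 11.9 CPM in WT-D 1, at 0.961, 0.601 and 1.48 CPM in the other WT-D mice, at 3.52 CPM in 3xTg-D 2 and at 2.29 CPM in 3xTg-S 1. Psmb8 was 11.45-fold above the median of the other WT-D mice in WT-D 1, 2.71-fold in 3xTg-D 2 and 2.14-fold in 3xTg-S 1. Psmb9 shares 212 exon bases with Tap1 on the opposite strand, and the strand setting of the counts is not given in the sources used here. Zbp1, a sensor of Z-form nucleic acid, went the same way on few reads, with 127 reads in WT-D 1. There were 31 reads of it in 3xTg-D 2, 11 in 3xTg-S 1 and 0 to 6 elsewhere.

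**Figure D2:**
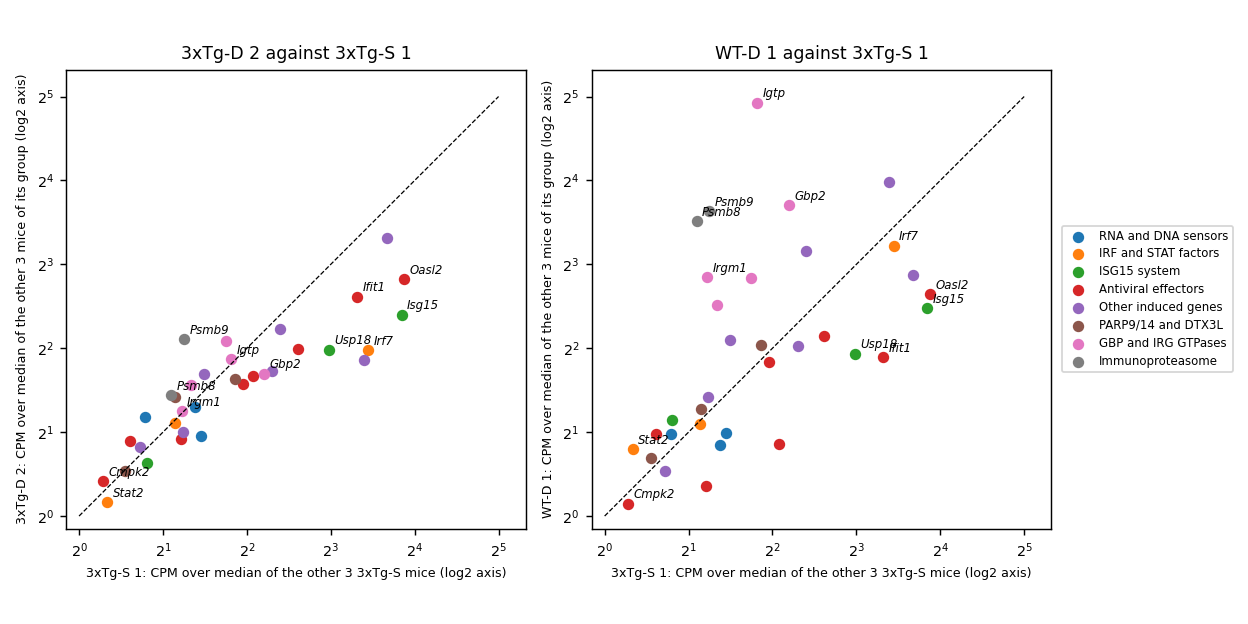
Ratio of CPM to the median of the other 3 mice of the same group for the 34 tested genes (points, coloured by role), on log2 axes, with 3xTg-S 1 on the horizontal axis and 3xTg-D 2 (left) or WT-D 1 (right) on the vertical axis. GTPase and immunoproteasome genes lie above the dashed line of equal ratios in the right panel, with Igtp at 30.4 against 3.52, while Ifit1, Oasl2 and Isg15 lie below it.

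Most antiviral effectors ran in the other order, more clearly in 3xTg-S 1 than in 3xTg-D 2. Ifit proteins bind foreign RNA, Oas proteins make the messenger that activates RNase L, and Rsad2 (viperin) and Cmpk2 act on nucleotides. Of the 8 tested effectors, 7 had a higher ratio in 3xTg-S 1 than in WT-D 1, and 5 had a higher ratio in 3xTg-D 2 than in WT-D 1. The other 3, Ifit2, Ifit3 and Ifit3b, had a higher ratio in WT-D 1 than in 3xTg-D 2. Ifit1 was at 26.6 CPM in 3xTg-D 2 and 25.0 CPM in 3xTg-S 1, but 9.88 CPM in WT-D 1, and the remaining mice had 2.01 to 5.94 CPM. Oasl2 was at 51.9 CPM in 3xTg-S 1, 41.6 CPM in 3xTg-D 2, with 20.7 in WT-D 1, with 2.38 to 8.99 CPM elsewhere. Ifit3, among the 3 genes of the set with the highest level per length, was at 24.5, 5.52, 4.45 and 5.72 CPM in WT-D, at 11.2, 34.2, 6.05 and 8.61 CPM in 3xTg-D, at 5.68, 4.66, 6.28 and 4.99 CPM in WT-S and at 32.4, 5.39, 4.43 and 5.29 CPM in 3xTg-S (replicates 1 to 4). The 3 mice were clear of the rest, and 3xTg-D 1 came next. Ifit3 and Ifit3b are near copies (41.1% of the 75-base words of Ifit3 occur in another gene), and their split is uncertain. Cmpk2, also among those 3 genes, moved least. The WT-D mice had 24.04, 20.99, 21.7 and 22.2 CPM. The 3xTg-D mice had 21.5, 28.4, 19.6 and 21.3 CPM. It was at 20.3, 22.3, 21.9 and 18.3 CPM in WT-S and 25.8, 23.3, 18.8 and 21.2 CPM in 3xTg-S. The 3 mice were still the highest, at ratios of 1.11, 1.34 and 1.22. Ifit2, a relative of Ifit1, was at 24.5, 26.3 and 20.1 CPM in WT-D 1, 3xTg-D 2 and 3xTg-S 1 and at 11.2 to 16.03 CPM in the others. Rsad2 was at 3.55, 6.96 and 6.61 CPM in the 3 mice, against 1.41 to 2.91 CPM. Oas1a was at 1.014, 1.85 and 1.18 CPM and at 0 to 0.486 CPM elsewhere, and 47.6% of its 75-base words occur in another gene. Oas2 did not follow the set in WT-D 1, with 0.338 CPM there, 0.797 in 3xTg-D 2 and 1.31 in 3xTg-S 1, against 0.155 to 0.648 CPM in the rest.

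The ISG15 system attaches and removes the ubiquitin-like protein Isg15, with Herc6 as the ligase and Usp18 as the protease that also damps the type I receptor. Isg15 was at 5.43 CPM in 3xTg-S 1, 3.78 in 3xTg-D 2 and 2.79 in WT-D 1, and 0.0954 to 0.927 CPM in the other mice. By ratio it was at 14.4 in 3xTg-S 1, 5.29 in 3xTg-D 2 and 5.57 in WT-D 1. WT-S 3 was the highest WT-S mouse at 0.917 CPM, at a ratio of 2.41 to the median of the other WT-S mice. Herc6 differed less, at 12.04, 10.95 and 12.2 CPM in WT-D 1, 3xTg-D 2 and 3xTg-S 1 and 4.56 to 7.69 CPM in the other mice. Among the transcription factors, Irf7, which amplifies interferon production, was at 8.87, 6.92 and 7.78 CPM in the 3 mice and 0.385 to 1.91 CPM in the others. Irf9 was raised 2.14-fold, 2.17-fold and 2.20-fold in the 3 mice, an almost equal ratio.

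The RNA sensors Ddx58 (RIG-I), Ifih1 (MDA5) and Dhx58 (LGP2) had ratios between 1.72 and 2.73 in the 3 mice. Ddx58 was at 15.3 CPM in 3xTg-D 2, 15.04 in 3xTg-S 1 and 9.80 in WT-D 1, against 4.96 to 7.23 CPM in the other mice. Parp14, Parp9 and their partner Dtx3l, which modify proteins with ADP-ribose and ubiquitin, had ratios between 1.45 and 4.12. Parp9 and Dtx3l overlap by 458 exon bases on opposite strands, and with the strand setting not given, the assignment of reads there is uncertain. Of the remaining genes, Ifi27, a mitochondrial protein and the set's highest level per length (19.3 CPM per kb of exon), was at 36.1, 24.8, 22.6 and 27.6 CPM in WT-D. The 3xTg-D mice had 28.2, 49.3, 28.0 and 25.7 CPM of Ifi27, and it was at 25.5, 25.0, 24.6 and 23.8 CPM in WT-S and 39.9, 21.5, 24.2 and 25.3 CPM in 3xTg-S. Again only the 3 mice left the common range. Bst2 (tetherin), which holds budding virus at the cell surface, was at 9.04, 7.76 and 5.76 CPM in the 3 mice and 0.743 to 1.79 CPM in the rest. Ifi44 was at 9.84, 4.91 and 3.27 CPM in the 3 mice and 0.239 to 1.604 CPM in the others. Rtp4, a chaperone of membrane receptors, was nearly level among the 3 mice, at 7.52, 7.43 and 7.46 CPM, with 1.03 to 2.25 CPM elsewhere. Ifi27l2a had few reads, at 3.17, 2.60 and 1.504 CPM against 0 to 0.872 CPM. Xaf1, a pro-apoptotic protein, was at 10.1, 7.72 and 8.44 CPM and at 2.505 to 4.75 CPM in the others.

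**Figure D3:**
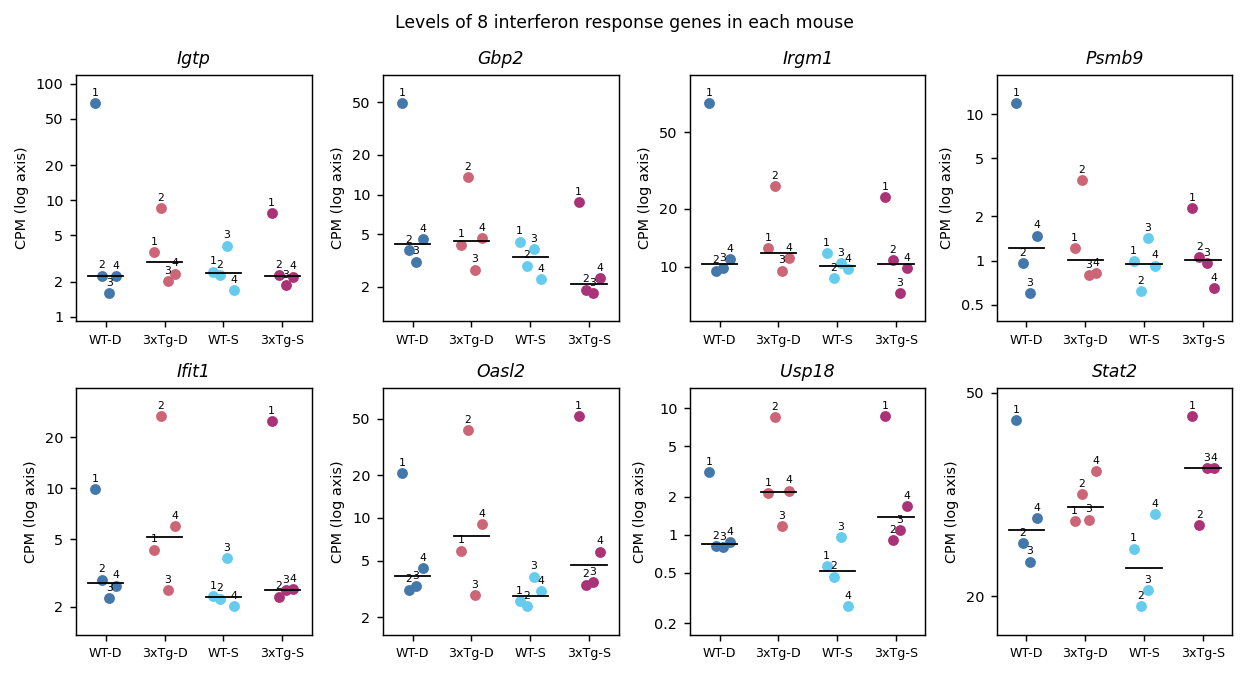
CPM (log axis) of 8 genes in each mouse (points, labelled by replicate number, with the group median as a line). Igtp, Gbp2, Irgm1 and Psmb9 peak in WT-D 1, and Ifit1, Oasl2 and Usp18 peak in 3xTg-D 2 and 3xTg-S 1, while Stat2 in 3xTg-S lies at 27.6 to 44.9 CPM and in WT-S at 19.1 to 28.9 CPM.

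The groups were then compared pairwise by edgeR's quasi-likelihood test, and a gene was called when its p before adjustment did not exceed 0.01. In vehicle mice, 0 of the 34 genes were called between the genotypes (WT-D vs 3xTg-D), against 4.91% of all tested genes, and 0 at p under 0.05, against 12.6%. The median log2 fold change was 0.03, with 21 genes higher in 3xTg-D. Without WT-D 1 it was 0.64, with 3 genes called, and no share of all genes is given for that fit. It was -0.44 without 3xTg-D 2. The median also fell below 0 without WT-D 2, WT-D 3 or WT-D 4, at -0.098, -0.086 and -0.027. It lay near 0 with all mice and its sign was not stable, and the count of calls turned on WT-D 1. Fold changes ran from -2.16 for Igtp to 1.32 for Usp18. Between WT-D and 3xTg-S, 0 were called against 5.69% of all genes, and 0 at p under 0.05 against 13.1%, with a median of -0.12. That median was 0.34 without WT-D 1 and -0.80 without 3xTg-S 1. A p that misses the threshold does not show that the groups are alike. In WT-D, the SD of the set's average log2 CPM was 0.988, against 0.157 for the 3 mice other than WT-D 1.

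Between WT-S and 3xTg-S, 2 genes of the set were called, both higher in 3xTg-S, against 4.26% of all genes. Stat2, a transcription factor of type I signalling, was at 24.8, 19.1, 20.5 and 28.9 CPM in WT-S and at 44.9, 27.6, 35.6 and 35.6 CPM in 3xTg-S. In vehicle mice it was at 44.2, 25.4, 23.4 and 28.4 CPM (WT-D) and 28.0, 31.6, 28.2 and 35.1 CPM (3xTg-D). WT-S and 3xTg-S overlap in 1 mouse each, WT-S 4 and 3xTg-S 2. The means were 23.3 ± 4.43 CPM and 35.9 ± 7.10 CPM (SD, n = 4), and the log2 fold change was 0.61 with a standard error of 0.16 (edgeR p 0.00296, adjusted 0.122). Usp18 was at 0.563, 0.466, 0.963 and 0.271 CPM in WT-S and at 8.63, 0.906, 1.09 and 1.67 CPM in 3xTg-S. WT-S 3 lay above the lowest 3xTg-S mouse, and 3xTg-S 1 lay far above all others of these 8. The log2 fold change of Usp18 was 2.36 with a standard error of 0.74 (edgeR p 0.00897, adjusted 0.221), and without 3xTg-S 1 it was 1.07 (p 0.0279). For Stat2 the value without 3xTg-S 1 was 0.48 (p 0.0103), so neither call held without that mouse. Without WT-S 2 or WT-S 3 neither was called as well, and without WT-S 1 or WT-S 4 Usp18 was not called.

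All 34 genes were higher in 3xTg-S than in WT-S by fold change, with a median of 0.46 on the log2 scale. At p under 0.05, 5 genes passed, against 10.7% of all genes. Without 3xTg-S 1 the median was -0.12, and 11 of the 34 genes were higher in 3xTg-S. The direction of the median thus turned on 1 mouse of 8.

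For the effect of CAY10566 within a genotype, 0 genes were called in 3xTg-D vs 3xTg-S (0.904% of all genes) and 0 in WT-D vs WT-S (0.188% of all genes). At p under 0.05 the counts were 0 (6.33% of all) and 8 (2.25% of all). The 8 genes, all lower in WT-S, were Gbp2, Ifi44, Oasl2, Usp18, Igtp, Xaf1, Dtx3l and Psmb9, with adjusted p of 0.9996 for each. With the replicate number as a block, Gbp2, Usp18, Xaf1, Dtx3l, Stat2 and Rtp4 passed p under 0.05. Ifi44, Oasl2, Igtp and Psmb9 did not pass. No share of all genes is given for the block fit, so these passes are not a result about the set. The median log2 fold change was -0.25 in 3xTg and -0.91 in WT mice, and all 34 genes were lower in WT-S than in WT-D. In 3xTg mice the median was 0.32 without 3xTg-D 2 and -0.92 without 3xTg-S 1, so its direction turned on 1 mouse. Without WT-D 1 the median in WT mice was -0.02, and 0 of the 34 genes passed p under 0.05. The passes at that threshold in WT-D vs WT-S thus turned on 1 mouse. No share of all genes at p under 0.05 is given for the fit without WT-D 1. In WT-D vs WT-S, a fit with the replicate number as a block gave a median of -0.63 and 0 calls. In the genotype by treatment interaction 0 of the 34 genes were called against 0.595% of all, and 1 (Stat2) passed p under 0.05 against 4.98%. The median interaction was 0.64, and -0.24 without WT-D 1.

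**Figure D4:**
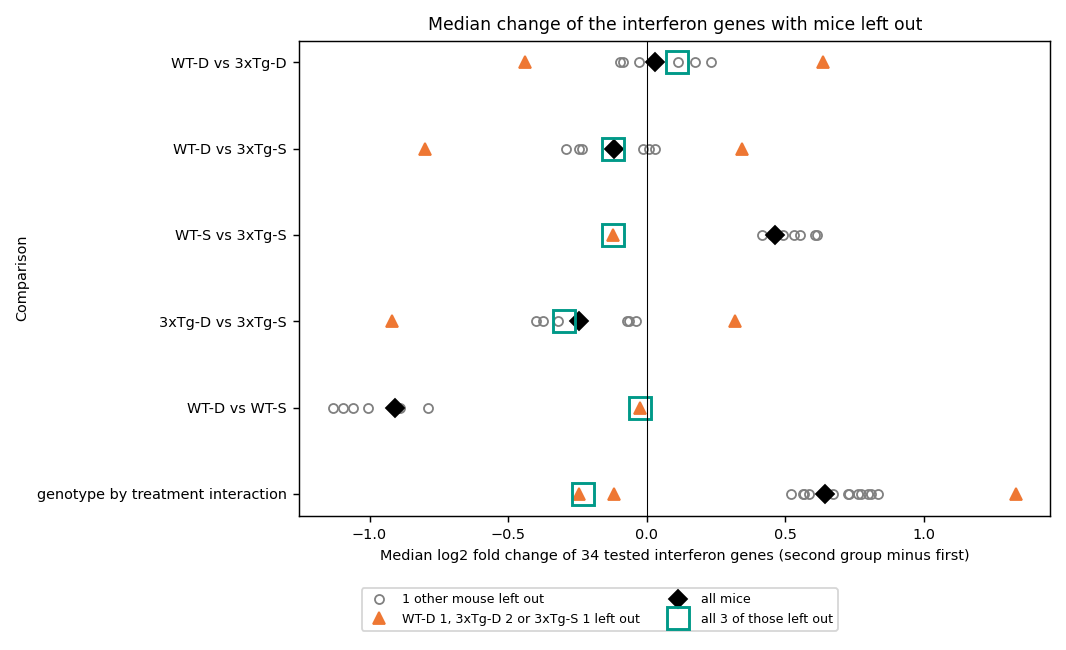
Median log2 fold change of the 34 tested genes (horizontal axis, second group named minus the first) in each of 6 comparisons (vertical axis). Black diamonds use all mice, orange triangles leave out WT-D 1, 3xTg-D 2 or 3xTg-S 1 and grey circles leave out any other mouse. The squares leave out all 3, and in WT-D vs WT-S the median went from -0.91 to -0.02.

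When WT-D 1, 3xTg-D 2 and 3xTg-S 1 were left out together, a choice made after their values were seen, 3 mice remained in each of those groups. These mice were picked on the same genes, so the p-values of these fits are too small. Leaving out the highest mice also narrows the groups, so separation of the remaining values is no support for a difference. Between WT-D and 3xTg-D, 5 genes were then called, all higher in 3xTg-D, against 5.0% of all genes. They were Usp18, Irf7, Herc6, Ifit3 and Ifit3b. Usp18 was at 0.816, 0.801 and 0.868 CPM in the 3 WT-D mice and at 2.14, 1.17 and 2.23 CPM in the remaining 3xTg-D mice, with WT-D 1 at 3.13 CPM and 3xTg-D 2 at 8.47 CPM. The log2 fold change of Usp18 was 1.146 with a standard error of 0.30 (edgeR p 0.0026, adjusted 0.0905). Ifit3 was at 5.52, 4.45 and 5.72 CPM in WT-D and at 11.2, 6.05 and 8.61 CPM in 3xTg-D, a change of 0.71 (adjusted p 0.122). Irf7 was at 0.961, 0.951 and 0.817 CPM in WT-D, with 1.76, 1.22 and 1.91 in 3xTg-D, a change of 0.83 (adjusted p 0.197). The median over the 34 genes was 0.11.

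Between 3xTg-D and 3xTg-S without the 3 mice, Gbp2, Irf7 and Ifit3 were called, all lower in 3xTg-S, against 0.643% of all genes. Ifit3 was at 5.39, 4.43 and 5.29 CPM in 3xTg-S, with a log2 fold change of -0.77 (adjusted p 0.999). Irf7 was at 0.716, 0.385 and 0.918 CPM in 3xTg-S, a change of -1.25 (adjusted p 0.999). Gbp2 was lower in 3xTg-S also against WT-D, where it was the 1 gene called (log2 fold change -0.94, 3.7% of all genes called). Between WT-S and 3xTg-S 0 were called (3.53% of all), and 0 between WT-D and WT-S (0.176% of all). In the interaction 1 gene was called, Ifit3 at -0.83 (0.407% of all). In these pairwise edgeR fits no gene of the set passed an adjusted p of 0.05, with or without the 3 mice.

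In the 3 mice, none of the 5 tested receptors was 2-fold above the median of the other mice of the group. Ligand reads were too few to compare. Of 12 interferon ligands, 9 had 0 reads in all 16 mice, and Ifnb1 and Ifng had 1 read each in WT-D 1 and Ifnab 1 read in 3xTg-S 3. At 1 read, presence cannot be told from noise. The 6 interferon receptor genes summed to 157 CPM in WT-D 1, 162 in 3xTg-D 2 and 148 in 3xTg-S 1, inside the 137 to 163 CPM of the other mice. Within that sum, Ifngr1 was highest of all mice in 3xTg-D 2, at 26.9 CPM (ratio 1.44), and Ifnar2 was highest in WT-D 1, at 13.1 CPM (ratio 1.21). Of the 5 tested receptors, 1 was called lower in 3xTg-D than WT-D (Il10rb, a shared chain of the interferon lambda receptor, log2 fold change -0.68 with a standard error of 0.20, edgeR adjusted p 0.160), where 4.91% of all genes were called. Another was called lower in 3xTg-S than WT-D (Ifnar1, -0.19 with 0.06, adjusted p 0.129), where 5.69% of all genes were called. Il10rb was at 5.05 to 6.08 CPM in WT-D, with 2.18 to 4.56 in 3xTg-D, and Ifnar1 was at 45.4 to 48.96 CPM in WT-D and 40.7 to 43.9 CPM in 3xTg-S. Neither pair of groups overlaps, but the share of all genes without overlap is not given, so this adds no support to the calls.

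Downstream of the receptors, Irf1, a transcription factor that interferon gamma is known to induce, was at 25.8 CPM in WT-D 1 but at 9.02 CPM in 3xTg-D 2 and 6.93 CPM in 3xTg-S 1, where the other mice had 4.44 to 8.53 CPM. Jak1 and Jak2 had ratios of 0.843 to 1.21 in the 3 mice. Among 15 tested sensing genes Myd88, an adaptor of Toll-like receptors, was called lower in 3xTg-S than WT-D (-0.43 with a standard error of 0.13), and among 4 tested brakes Ptpn2, a phosphatase that acts on STAT proteins, was called higher (0.28 with 0.07). These calls had edgeR adjusted p of 0.145 and 0.0785, in the comparison that called 5.69% of all genes.

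Another 49 interferon-induced genes outside the set were looked at, of which 41 were tested. In WT-D 1, 29 of the 41 were at least 2-fold above the median of the other mice of the group, against 2.57% of all tested genes. There were 25 in 3xTg-D 2, against 2.29%, and 24 in 3xTg-S 1, against 2.15%. Cxcl10, a chemokine that draws T cells, was at 13.6 CPM in WT-D 1, 9.36 in 3xTg-D 2 and 7.85 in 3xTg-S 1, and 0.0477 to 1.154 CPM elsewhere. Cd274 (PD-L1), Tap1 (the peptide transporter) and Irgm2 reached ratios of 10.0, 10.4 and 16.9 in WT-D 1 and 2.21 to 3.71 in 3xTg-D 2 and 3xTg-S 1. Mx2, a GTPase known as a type I target, was at 5.76 CPM in 3xTg-S 1, 3.94 in 3xTg-D 2 and 1.82 in WT-D 1. Of the 41, only Trim30d was called in a group comparison. The calls were in WT-D vs 3xTg-D, WT-D vs 3xTg-S and WT-S vs 3xTg-S, where 4.91%, 5.69% and 4.26% of all genes were called. It was at 0 to 0.380 CPM in WT-D, 0.0458 to 1.03 in WT-S, 2.07 to 7.01 in 3xTg-D and 1.41 to 5.49 in 3xTg-S. The genotypes did not overlap, and the share of all genes without overlap is not given. The log2 fold change of Trim30d was 4.64 with a standard error of 0.77 in WT-D vs 3xTg-D (edgeR adjusted p 0.0124). Trim30a, its neighbour in the set, shares 4.98% of its 75-base words with another gene and had no such split, at 1.45 to 3.98 CPM in the mice other than the 3.

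In bulk RNA, more cells of a type and more RNA per cell cannot be told apart. Microglia markers (6 genes) summed to 572, 736 and 416 CPM in WT-D 1, 3xTg-D 2 and 3xTg-S 1, where the other 13 mice had 328 to 490 CPM. Astrocyte markers (4 genes) summed to 2641 CPM in 3xTg-D 2 and 1731 and 1710 CPM in WT-D 1 and 3xTg-S 1, and 1408 to 1905 CPM in the rest. Gfap was at 1118 CPM in 3xTg-D 2, the highest mouse. Blood leukocyte markers (6 genes) summed to 7.73 CPM in WT-D 1, 6.46 of it Ccr2, and to 1.47 CPM in 3xTg-D 2 and 0.785 CPM in 3xTg-S 1, against 0.229 to 0.814 CPM in the other mice. The T-cell markers Cd8a and Cd3e had 15 and 8 reads in WT-D 1 and 8 and 3 reads in 3xTg-D 2, against 0 to 3 reads in the other 14 mice. The neutrophil marker Ly6g had 0 reads in every mouse. Endothelial markers had median ratios of 0.964 to 1.30 in the 3 mice, and choroid plexus markers were high in WT-D 4 (718 CPM) and WT-S 1 (285 CPM), none of the 3. Between groups, Mbp, a myelin gene, was called higher in 3xTg-D than WT-D (log2 fold change 0.49), Mog lower in 3xTg-S than WT-D (-0.51), and Ttr lower in both 3xTg groups than WT-D (-4.89 and -5.88), where WT-D 4 was high. The part of these cells in the result was not tested.

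**Figure D5:**
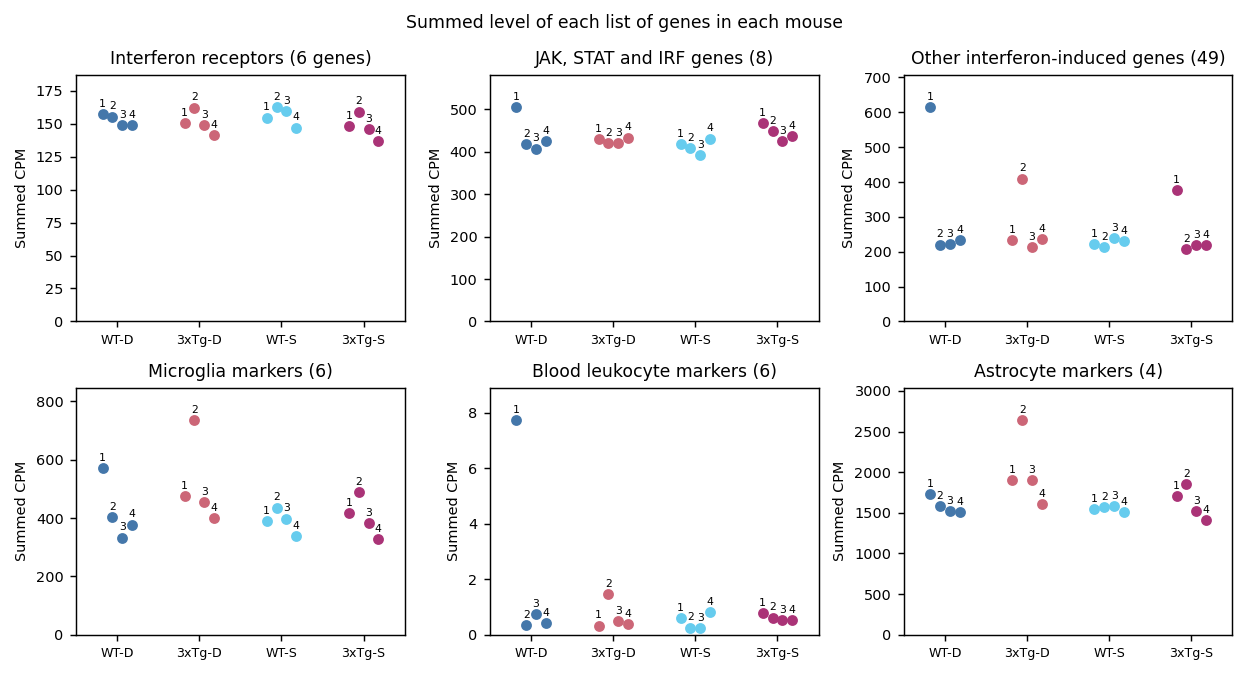
Summed CPM (vertical axis, from 0) of 6 gene lists in each mouse (points, labelled by replicate number). Other interferon-induced genes are highest in WT-D 1, 3xTg-D 2 and 3xTg-S 1, at 616, 410 and 376 CPM against 207 to 238 CPM in the other mice, while interferon receptors lie within 137 to 163 CPM in all mice, and leukocyte markers reach 7.73 CPM in WT-D 1 alone.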

How the data were processed

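Hippocampal RNA of 16 mice (4 per group) was sequenced as single-end reads. The authors trimmed reads with Trimmomatic 0.35, aligned them with STAR 2.5.1b to GRCm38 with Gencode M23, and deposited the table of unnormalized counts per gene. The adapters carried unique molecular identifiers, and neither their use in counting nor the strand setting is given in the sources used here. Read totals per mouse were 15413385 to 23590149 on genes, and counting error is smallest for genes with many reads. Replicate libraries differed by more than counting noise, so none was a copy of another.

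Counts were filtered with edgeR 4.0.16 (filterByExpr, minimum count 10, minimum total 15) and TMM-normalized, and groups were compared pairwise with edgeR's quasi-likelihood test (R 4.3.3), calling genes at p of 0.01 or less, and Benjamini-Hochberg adjusted p are over 16475 genes. Nothing says that mice share litters, and p-values measure the spread between these mice. Exon lengths and overlaps came from Gencode M21 (GRCm38), and 75-base words from its transcripts. Pairing by replicate number was checked by correlating deviations from group means, which were over 0.1 in all 4 pairs only for WT-D vs WT-S (0.114 to 0.340). Genes given in every mouse are members called at the threshold in any comparison and the 3 with the highest level per length, with list genes called. No member was called in WT-D vs 3xTg-D, so no neighbouring genes were looked at. Other members (Igtp, Gbp2, Ifit1, Oasl2, Isg15, Irf7 and those quoted beside them) were chosen after their values were seen. The members and lists were chosen with earlier results of these data known. The fits were tested on simulated counts. Alternatives were DESeq2 1.42.0, other size factors and filters, a replicate block, a covariate, a fit of all mice and leaving out mice. Leaving out 3 mice together was chosen after seeing the data. Results for some genes are not reported here.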

Additional observations from a re-analysis of the deposited data

Results flagged for a closer look

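In each group of 4 mice, the larger of the gaps that set the highest or the lowest mouse apart from its neighbour was divided by the whole range of the group, and set against the critical value of Dixon's test at 95%, which chance passes in about 1 of 20 groups. Of the 37 genes, 24 passed in WT-D, 18 in 3xTg-D, 21 in 3xTg-S and 4 in WT-S. The genes of the set share mice and are not independent, and the 3 mice were already known to be high. No share of all tested genes is given beside these counts, so they describe the mice and are not a result about the set. In each case below the mouse was the highest of its group. For the set average and the genes described in full, WT-D 1 stood apart with ratios of 0.855 for the set average, 0.982 for Irf7, 0.891 for Isg15, 0.971 for Usp18, 0.917 for Ifit1, 0.937 for Ifit3, 0.925 for Oasl2, 0.968 for Gbp2, 0.99 for Igtp, 0.978 for Irgm1, 0.922 for Psmb9. 3xTg-D 2 stood apart with ratios of 0.879 for Irf7, 0.85 for Isg15, 0.854 for Usp18, 0.857 for Ifit1, 0.842 for Oasl2, 0.891 for Ifi27, 0.849 for Psmb9. 3xTg-S 1 stood apart with ratios of 0.905 for the set average, 0.928 for Irf7, 0.897 for Isg15, 0.901 for Usp18, 0.989 for Ifit1, 0.966 for Ifit3, 0.951 for Oasl2, 0.925 for Gbp2, 0.928 for Igtp. In WT-S, WT-S 3 stood apart with ratios of 0.854 for Isg15, 0.841 for Ifit1, at levels of 0.917 CPM for Isg15 and 3.85 CPM for Ifit1, far under those of the 3 mice.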

How the results depend on the processing

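Leaving out 1 mouse at a time gave 0 to 3 calls in WT-D vs 3xTg-D (3 without WT-D 1, namely Herc6, Usp18 and Ifit3b), 0 in WT-D vs 3xTg-S, 0 to 5 in WT-S vs 3xTg-S, 0 in 3xTg-D vs 3xTg-S, 0 to 1 in WT-D vs WT-S and 0 in the interaction. In WT-S vs 3xTg-S the count was 0 without WT-S 2, WT-S 3 or 3xTg-S 1, 1 without WT-S 1 or WT-S 4, 4 without 3xTg-S 4 and 5 without 3xTg-S 2. The 1 call of WT-D vs WT-S, Dtx3l, came without WT-D 3. The medians ranged from -0.44 to 0.64, -0.80 to 0.34, -0.12 to 0.61, -0.92 to 0.32, -1.13 to -0.02 and -0.24 to 1.33 in the same order. Without the 3 mice (chosen after seeing the data) the calls were 5, 1, 0, 3, 0 and 1, and the median was -0.024 in WT-D vs WT-S, as without WT-D 1 alone, and -0.23 in the interaction. With no filter on low counts there were 2 calls in WT-D vs 3xTg-S, 7 in WT-S vs 3xTg-S and 9 in WT-D vs WT-S. Apart from the fits without the 3 mice, the share of all genes called is not given for the fits of this section. Their counts of calls, those of the replicate block included, cannot be judged as a result about the set. The count in WT-S vs 3xTg-S was 1 with at least 10 counts in every mouse, 1 with the share of reads outside genes as a covariate, 1 with all 16 mice in 1 fit and 0 at an adjusted p of 0.05. With the covariate the median in WT-D vs 3xTg-D was -0.48. Usp18 was at 2.04 with the covariate (p 0.0195) and 2.38 with all 16 mice (p 0.0107). DESeq2 called the same 2 genes in WT-S vs 3xTg-S and gave no p for 3 to 14 of the 34 genes, depending on the comparison. Genes passed an adjusted p of 0.05 in some of these fits of WT-S vs 3xTg-S. They were Oasl2, Usp18 and Stat2 with no filter (0.0147, 0.0123 and 0.0104), Usp18 and Stat2 with DESeq2 (0.0280 and 0.0212), and Stat2 with the covariate (0.0384), without WT-S 4 (0.0455) and without 3xTg-S 2 (0.0374). The cause was not tested.

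With the replicate block, 3 genes were called in WT-D vs 3xTg-S (Gbp2, Gbp3 and Ifi44, lower in 3xTg-S) and 3 in WT-S vs 3xTg-S (Stat2, Usp18 and Herc6), of which Gbp2, Ifi44 and Stat2 had adjusted p of 0.0427, 0.0322 and 0.00956. In both of these comparisons 3 of the 4 same-numbered pairs correlated over 0.1 and 1 did not, and nothing in the labels ties the numbers to a shared source. In WT-D vs WT-S the block changed no call at p of 0.01 or less.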

Other observations

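WT-D 1 was at least 4-fold above the median of the other WT-D mice for 116 of 16475 tested genes. Of these, 17 belong to the set and 83 to no list used here. Some of the 116, chosen after their values were seen, are antigen presentation and acute-phase genes. Cd74, the chaperone of MHC class II, was at 106 CPM in WT-D 1, 21.5 CPM in 3xTg-D 2 and 3.34 CPM in 3xTg-S 1, against 0.518 to 5.40 CPM in the other mice. H2-Aa, a class II chain, was at 54.5 CPM in WT-D 1, 8.47 in 3xTg-D 2 and 1.24 in 3xTg-S 1. Lcn2, an iron-binding acute-phase protein, was at 14.2 CPM in WT-D 1 and at most 1.14 CPM in every other mouse. C3, the central complement component, was at 70.0 CPM in WT-D 1 and at most 12.96 CPM elsewhere. Igkc and Jchain, made by antibody-secreting cells, were at 56.9 and 12.3 CPM in 3xTg-D 2 and at most 3.01 and 1.31 CPM in any other mouse. 3xTg-D 2 and 3xTg-S 1 had 59 and 63 genes at 4-fold.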
